A study of Homo sapiens with 15 samples.

Results

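The genes described here are 10 targets of the mitochondrial unfolded protein response and of heat shock factor 1. They were chosen by name, and a probe was taken for a gene when the RefSeq accession in the array files maps to that gene. The 6 mitochondrial members are HSPD1, HSPE1, HSPA9, LONP1, CLPP and TRAP1, and the 4 cytosolic members are HSPA1A, DNAJB1, HSPH1 and HSP90AA1. They are read by 13 probes and are 10 of the 26824 genes and other transcripts that were tested. All 10 were above background on all 15 arrays.

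The study treated A2058 cells, an established human melanoma line, with inhibitors of mitochondrial respiration and measured their transcripts by single-colour microarray after 8 hours. The groups were NP at 3 µM with DMSO as its vehicle, and the biguanides metformin (MET) at 5 mM and phenformin (PHEN) at 50 µM with water (W) as theirs, with 3 arrays in each of the 5 groups. The series names the compound in the NP group neopetasin, while the methods of the study give petasin at this concentration, and the arrays cannot show which was used. All groups came from 1 line in the same serum-supplemented medium. The study's methods describe its replicates as biological and taken from distinct samples, without saying what separated them. The arrays lay on 4 slides. DMSO and NP shared 2 of them and the other groups shared the other two, so vehicle and slide cannot be told apart between these sets. Replicates 1 and 2 of a set were on 1 slide and replicate 3 on the other, which means that the pair of replicate 3 is also the value within its slide. The melanocyte genes SOX10, MITF, PMEL, DCT and S100B were above background on all 15 arrays. MLANA and TYRP1 were too, with log2 levels from -3.15 to -0.10 and from -3.21 to -1.43, and TYR was on 13 of 15. Of the markers of other lineages, the epithelial genes EPCAM and KRT5 were above background on 0 of 15 arrays, ALB on 1 and CD3E on 11. PTPRC, PECAM1 and CDH5 were above background on all 15, with log2 levels between -2.90 and -1.29, and their part in the results was not tested.

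Proteins that enter the mitochondrial matrix unfolded are pulled in by mortalin, folded in the chamber of the HSP60 and HSP10 chaperonin, and cleared by the LON and ClpXP proteases when folding fails. When misfolded proteins accumulate there, cells raise transcription of these genes, which is called the mitochondrial unfolded protein response. In the cytosol, heat shock factor 1 (HSF1) is held inactive by chaperones and, once released, binds heat shock elements in the promoters of HSP70, HSP40, HSP110 and HSP90 genes. A heat shock element is a row of inverted GAA units.

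Promoter sequence from RefSeq (GRCh38.p14, 250 bases before to 50 after a start site) was found for 9 of the 10 members. The element was searched with 2 units, as GAANNTTC or TTCNNGAA, and with 3 units, in which a further inverted unit follows the 2-unit form after 2 spacer bases. Each 2-unit form reads the same on both strands, both strands were searched for the 3-unit form, and every 3-unit match also holds 2-unit matches. Of all 35116 windows, 13.5% hold the 2-unit form and 0.49% the 3-unit form. Among the members, 5 have the 2-unit form in some window (HSPD1, HSPA9, HSPA1A, DNAJB1 and HSP90AA1), and HSPD1 and HSP90AA1 also have the 3-unit form. These are counts of genes, and HSPD1, LONP1, DNAJB1 and HSP90AA1 have several windows each. The counts of genes are therefore not comparable with the shares of windows. Windows are shown for HSPA1A and HSPH1, which had the lowest fold changes of the members, and for HSP90AA1 and HSPD1, which carry the longer element, 5′ to 3′ with the 2-unit matches in capitals. The HSPA1A window is chr6:31815293-31815592 (+), that of HSPH1 is chr13:31162339-31162638 (-), that of HSP90AA1 is chr14:102086995-102087294 (-), and that of HSPD1 is chr2:197499791-197500090 (-).
HSPA1A: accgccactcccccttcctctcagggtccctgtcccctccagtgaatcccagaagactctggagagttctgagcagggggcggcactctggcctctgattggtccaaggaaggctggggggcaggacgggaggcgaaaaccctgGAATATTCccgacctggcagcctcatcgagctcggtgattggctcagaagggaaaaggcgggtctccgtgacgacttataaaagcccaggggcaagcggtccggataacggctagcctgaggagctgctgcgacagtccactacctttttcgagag
HSPH1: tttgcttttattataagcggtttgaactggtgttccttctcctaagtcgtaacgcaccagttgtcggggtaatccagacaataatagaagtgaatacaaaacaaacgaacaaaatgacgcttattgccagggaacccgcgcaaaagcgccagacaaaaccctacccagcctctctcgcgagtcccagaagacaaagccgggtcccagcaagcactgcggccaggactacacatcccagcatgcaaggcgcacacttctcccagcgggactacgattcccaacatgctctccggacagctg
HSP90AA1: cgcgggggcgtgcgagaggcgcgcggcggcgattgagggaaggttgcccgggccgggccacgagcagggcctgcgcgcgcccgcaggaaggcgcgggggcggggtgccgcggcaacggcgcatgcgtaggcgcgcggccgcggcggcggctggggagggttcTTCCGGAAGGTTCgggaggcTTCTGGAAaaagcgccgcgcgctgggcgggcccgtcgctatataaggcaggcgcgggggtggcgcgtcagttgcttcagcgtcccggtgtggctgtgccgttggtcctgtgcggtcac
HSPD1: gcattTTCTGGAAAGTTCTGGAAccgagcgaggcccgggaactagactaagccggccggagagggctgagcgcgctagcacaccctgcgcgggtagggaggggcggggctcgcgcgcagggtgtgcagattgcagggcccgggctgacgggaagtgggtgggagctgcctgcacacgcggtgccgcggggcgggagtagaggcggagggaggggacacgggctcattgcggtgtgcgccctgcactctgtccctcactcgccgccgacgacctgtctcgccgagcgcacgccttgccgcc
The HSPA1A match begins 106 bases before the start site. The HSPH1 window has no match, and neither do those of HSPE1, LONP1 and TRAP1. Only exact matches inside the windows were searched, so this does not show that a gene lacks the element. The HSPD1 window that holds matches ends at 197500090, just outside the HSPE1 window, which begins at 197500129. A second HSPD1 window and the HSPE1 window overlap by 204 bases, since these genes are read in opposite directions from a common region.

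None of the 10 members passed the test in any of the 3 treatments. A gene was called when it differed by at least 1.5-fold with an adjusted p of at most 0.05, from limma across all features with Benjamini-Hochberg adjustment. Of 10 members, 0 were called in NP against DMSO, where 0.0373% of all features were, 0 in MET against W, where the share was 0%, and 0 in PHEN against W, where it was 0.0261%. At an unadjusted p of 0.05, 2 of 10 members passed in NP (HSPA1A and HSPH1), 2 in MET (LONP1 and HSPH1) and 1 in PHEN (LONP1). Over all features the shares were 4.78%, 2.54% and 2.45%. These counts depend on the block. With the replicate number as a block within each slide set, 3 passed in NP (HSPA1A, DNAJB1 and HSPH1). In MET 3 passed (LONP1, TRAP1 and HSPH1), and in PHEN 5 (LONP1, TRAP1, HSPA1A, DNAJB1 and HSPH1). Of 26824 features, 3205, 2667 and 1949 then passed. By compartment, the median log2 fold change of the mitochondrial genes was 0.00 in NP, 0.01 in MET and 0.00 in PHEN, and that of the cytosolic genes was -0.26, -0.24 and -0.22, beside medians over all features of -0.02, 0.00 and -0.05. For the 6 mitochondrial genes every 95% confidence interval lay inside the 1.5-fold limits in all 3 treatments. Among the cytosolic genes this held for DNAJB1 and, by its brightest probe alone, for HSP90AA1. The other probes of HSP90AA1 had larger standard errors, of 0.24 and 0.31. The intervals of HSPA1A and HSPH1 reached beyond the lower limit.

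**Figure D1:**
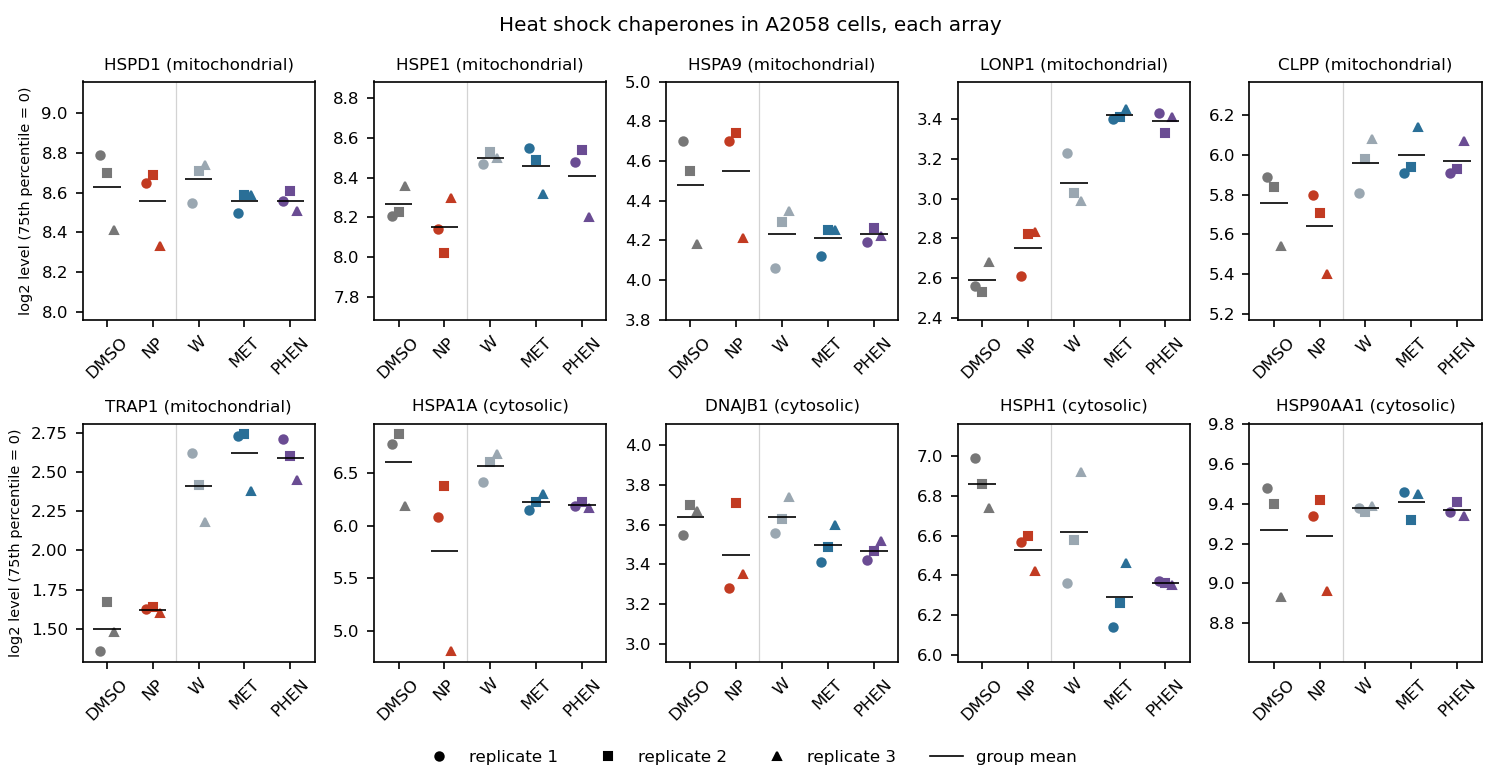
Level of each gene on every array (log2 processed signal, with the array's 75th percentile at 0) by group, with marker shapes for replicates and bars for group means; the grey line separates the slide sets, and each panel has its own scale. LONP1 lies higher on all MET and PHEN arrays than on the W arrays, and HSPA1A is lowest at 4.81 in NP replicate 3.

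**Figure D2:**
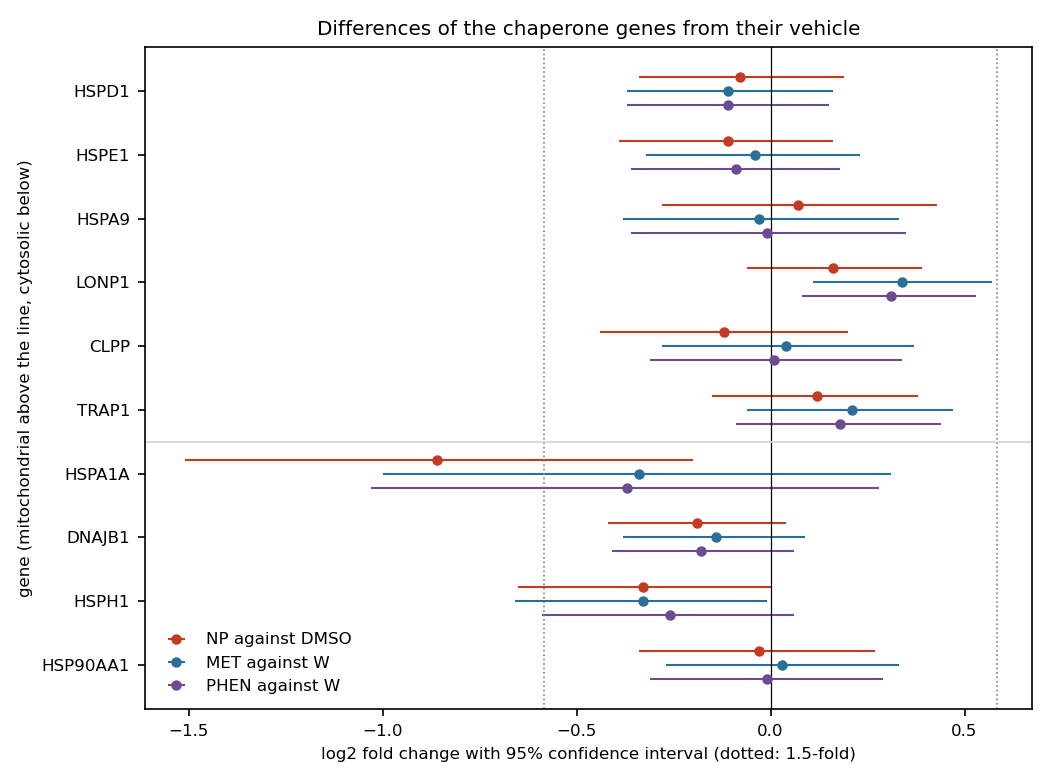
Log2 fold change of each gene from its vehicle (points) with the 95% confidence interval (lines) in the 3 treatments; dotted lines mark 1.5-fold. The mitochondrial intervals stay between the dotted lines, and those of HSPA1A and HSPH1 cross the lower one.

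HSPD1 (HSP60) forms the folding chamber of the mitochondrial matrix and HSPE1 (HSP10) is its lid. HSPD1 levels, given here and below as log2 signal with the 75th percentile of the array at 0, were 8.79, 8.70 and 8.41 in DMSO and 8.65, 8.69 and 8.33 in NP. They were 8.55, 8.71 and 8.74 in W, 8.50 to 8.59 in MET and 8.51 to 8.61 in PHEN. The treated arrays lay within the range of their vehicle or just below it. The log2 fold changes were -0.08, -0.11 and -0.11 (NP, MET, PHEN), with a standard error of 0.12 each. With the replicate block within each slide set that error was 0.06, and limma gave adjusted p = 0.672, 0.589 and 0.742. HSPE1 was at 8.21 to 8.36 in DMSO and 8.02 to 8.30 in NP, and at 8.47 to 8.53 in W, 8.32 to 8.55 in MET and 8.20 to 8.54 in PHEN. Its fold changes were -0.11, -0.04 and -0.09, with a standard error of 0.12, and all groups overlapped with their vehicle. Although the genes share their promoter region, Pearson's r between their levels over the 15 arrays, after centring on each slide set, was -0.23.

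HSPA9 (mortalin), the HSP70 of the matrix and the motor of protein import, was at 4.70, 4.55 and 4.18 in DMSO and at 4.70, 4.74 and 4.21 in NP. Replicate 3 was the lowest in both groups. In the water set HSPA9 stayed between 4.06 and 4.35 in W, 4.12 and 4.25 in MET, and 4.19 and 4.26 in PHEN. The fold changes were 0.07, -0.03 and -0.01, each with a standard error of 0.16. TRAP1, the HSP90 of mitochondria, was at 1.36, 1.67 and 1.48 in DMSO and 1.63, 1.64 and 1.60 in NP. With the biguanides it was at 2.62, 2.42 and 2.18 in W, 2.73, 2.74 and 2.38 in MET, and 2.71, 2.60 and 2.45 in PHEN. Every biguanide pair was above 0, but the groups overlapped. The fold change of TRAP1 was 0.12 in NP, 0.21 in MET and 0.18 in PHEN, with a standard error of 0.12.

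Of the mitochondrial members, LONP1 had the highest fold change in all 3 treatments. LONP1 is the LON protease, which degrades oxidized and misfolded matrix proteins. Its levels were 3.23, 3.03 and 2.99 in W, 3.40, 3.41 and 3.45 in MET, and 3.43, 3.33 and 3.41 in PHEN. All 3 arrays of each biguanide were above all 3 W arrays. The log2 fold change was 0.34 in MET and 0.31 in PHEN, with a standard error of 0.10, and the adjusted p was 1 in both. In the DMSO set LONP1 was at 2.56, 2.53 and 2.68 in DMSO and at 2.61, 2.82 and 2.83 in NP. These groups overlapped, and the fold change was 0.16 with a standard error of 0.10. As the biguanides were each compared with the same W arrays, their values are not independent of each other. CLPP, the peptidase of the ClpXP protease, was at 5.89, 5.84 and 5.54 in DMSO and 5.80, 5.71 and 5.40 in NP, so that each NP array was below its pair by 0.10 to 0.13. That difference was smaller than the spread within either group, and the fold change of -0.12 had a standard error of 0.15. In MET and PHEN, the fold change of CLPP was 0.04 and 0.01.

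HSPA1A, the stress-inducible HSP70 and a principal HSF1 target, had the lowest fold change of the members in each treatment. Its levels were 6.78, 6.87 and 6.19 in DMSO and 6.08, 6.38 and 4.81 in NP. Each NP array was below its DMSO pair, with differences of -0.69, -0.49 and -1.39, but NP replicate 2 exceeded DMSO replicate 3, so the groups overlapped. The log2 fold change was -0.86 (0.552-fold), with a standard error of 0.29 and a 95% confidence interval from -1.51 to -0.20; limma gave an adjusted p = 0.912. A limma fit with the replicate block within each slide set gave a standard error of 0.15. Its interval was from -1.21 to -0.50 (adjusted p = 0.0935). NP replicate 3 stood apart. Without replicate 3 the fold change was -0.59 with an adjusted p = 0.386. The probe was printed in 10 spots on each array, which had a standard deviation of 0.07 to 0.14 on the log2 scale within an array. These are bulk RNA samples, in which less transcript per cell and fewer cells that carry it cannot be told apart.

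In the water set HSPA1A was at 6.42, 6.61 and 6.68 in W, at 6.15, 6.23 and 6.30 in MET, and at 6.19, 6.23 and 6.17 in PHEN. All MET and all PHEN arrays were below all W arrays. The fold changes were -0.34 and -0.37 with a standard error of 0.29, and the adjusted p was 1 in both. With the replicate block within each slide set the standard error was 0.15, and the adjusted p = 0.512 in MET and 0.669 in PHEN. Groups that do not overlap are common at this size. They were 1 of 10 members in NP (HSPH1, lower), where 6.56% of all features were, 2 of 10 in MET (LONP1 higher, HSPA1A lower) against 6.17%, and 3 of 10 in PHEN (LONP1 higher, HSPA1A and DNAJB1 lower) against 8.23%. HSPA1B encodes a nearly identical HSP70 and its probe may read transcripts of both copies. It was at 5.09, 5.00 and 5.09 in DMSO and 4.48, 4.66 and 3.91 in NP, and the fold change was -0.71 (standard error 0.18, adjusted p = 0.509). Its values in MET and PHEN were -0.31 and -0.33.

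HSPH1 (HSP110), which exchanges the nucleotide of HSP70, was at 6.99, 6.86 and 6.74 in DMSO and at 6.57, 6.60 and 6.42 in NP, without overlap. The fold change was -0.33 (standard error 0.15, adjusted p = 1). In the water set it was at 6.36, 6.58 and 6.92 in W, 6.14, 6.26 and 6.46 in MET, and 6.37, 6.36 and 6.35 in PHEN. The PHEN arrays differed among themselves by far less than the W arrays, so the size of each pair followed the W array. The fold change of HSPH1 was -0.33 in MET and -0.26 in PHEN (adjusted p = 1 in both). Its second probe gave -0.39 in NP, -0.34 in MET and -0.25 in PHEN, each with a standard error of 0.33.

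DNAJB1, the HSP40 that hands clients to HSP70, was at 3.55, 3.70 and 3.67 in DMSO and at 3.28, 3.71 and 3.35 in NP. It was at 3.56, 3.63 and 3.74 in W, 3.41, 3.49 and 3.60 in MET, and 3.42, 3.47 and 3.52 in PHEN. In NP replicate 2 the gene was at the level of its vehicle, and the other pairs were -0.26 and -0.31. With the biguanides all 6 pairs lay between -0.14 and -0.22. The fold changes were -0.19, -0.14 and -0.18, with a standard error of 0.10. HSP90AA1, the inducible cytosolic HSP90, was at 9.48, 9.40 and 8.93 in DMSO, 9.34, 9.42 and 8.96 in NP, and 9.36 to 9.39 in W, 9.32 to 9.46 in MET and 9.34 to 9.41 in PHEN. By its brightest probe the fold changes were -0.03, 0.03 and -0.01 (standard error 0.14). The other probes of HSP90AA1 gave -0.17 and -0.23 in NP, -0.18 and -0.29 in MET, and -0.04 and -0.14 in PHEN, so the direction in MET differed between probes.

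The difference between the NP effect and each biguanide effect was tested as well, and 0 of 10 members were called, as were 0% of all features in either test. For HSPA1A the NP effect minus the MET effect was -0.51 (95% confidence interval from -1.44 to 0.41) and the NP effect minus the PHEN effect was -0.48 (from -1.41 to 0.44); limma gave an adjusted p of 1 for both. For LONP1 the differences were -0.18 (from -0.49 to 0.14) and -0.14 (from -0.46 to 0.18). With the replicate block within each slide set the HSPA1A intervals were narrower, from -1.01 to -0.01 against MET (adjusted p = 0.484) and from -0.98 to 0.02 against PHEN (adjusted p = 0.683). MET and PHEN were given at different concentrations and were not compared with each other.

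Most values of the wider HSP70 family were below 0 too. Of 9 further HSP70 and HSP110 genes, 8 were below 0 in NP, with a median of -0.45, and 0 were called; the count below 0 was 8 under every alternative run. Of all features, 45.5% were above 0 in NP, 50.0% in MET and 36.4% in PHEN. HSPA8, the constitutive HSC70, was at 6.18, 6.11 and 6.06 in DMSO and at 5.71, 5.62 and 5.17 in NP, so each NP array was below each DMSO array. The fold change of HSPA8 was -0.61 (0.653-fold, standard error 0.10) with an adjusted p = 0.114. When the slide entered the fit as a term it was called (adjusted p = 0.0427), and likewise among features above background on all 15 arrays (adjusted p = 0.047). It was called in none of the other limma fits, with an adjusted p = 0.0636 with the replicate block within each slide set, 0.908 without a block, and 1 without replicate 2. HSPA6, the inducible HSP70B', and HSPA1L, a testis HSP70, had fold changes of -0.59 and -0.54 in NP. HSPA6 was at -3.27 to -2.79 in DMSO and -4.09 to -3.13 in NP. HSPA1L was at -2.66 to -2.35 in DMSO and -3.80 to -2.62 in NP. Both genes thus had far weaker signals than HSPA8. Their pairs in replicates 1, 2 and 3 were -0.17, -0.32 and -1.30 for HSPA6 and -0.07, -0.40 and -1.14 for HSPA1L. Without replicate 3 the median of the list was -0.23, and with normexp background correction -0.22. HSPA13, a family member that sits at the endoplasmic reticulum, was at 0.27, with all 3 pairs above 0. In MET 8 of the 9 genes were below 0 and in PHEN 9 of 9, with a median of -0.21 in both, and HSPA8 was at -0.21 and -0.24.

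**Figure D3:**
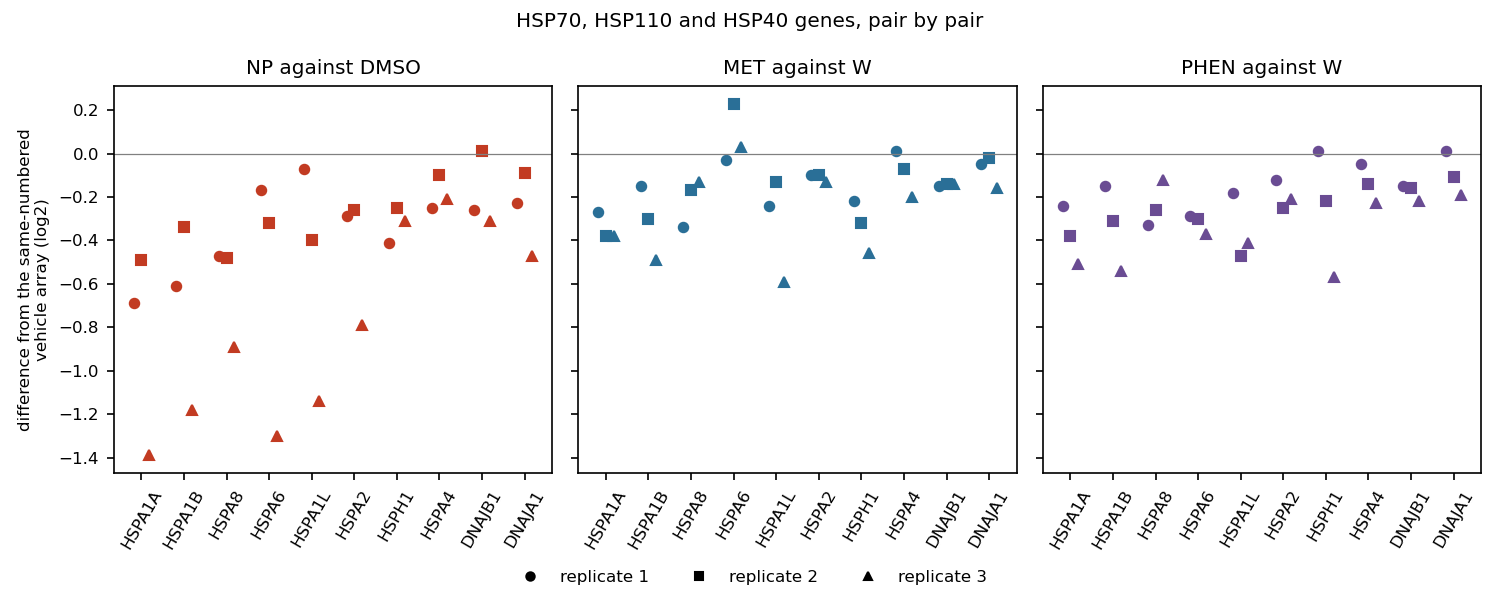
Difference of each treated array from the vehicle array of the same number (log2) for HSPA1A and 9 related HSP70, HSP110 and HSP40 genes; marker shapes stand for replicates. In NP the replicate 3 pair is the lowest for 8 of the genes, among them HSPA1A at -1.39 and HSPA6 at -1.30, and most biguanide pairs lie between 0 and -0.6.

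Among 8 other HSP40 genes, which select clients for HSP70, 7 were below 0 in NP with a median of -0.05, and DNAJA1 was at -0.26. DNAJA4 was at -0.48 in MET and -0.50 in PHEN (adjusted p = 1 in both). Its signal was weak, with levels of -3.16 to -2.90 in W, -3.56 to -3.44 in MET and -3.79 to -3.12 in PHEN. Of 15 measured genes for HSP90 and its co-chaperones, 15 were below 0 in NP, with a median of -0.14, and the lowest was BAG3 at -0.27. The same list had 7 below 0 in MET and 7 in PHEN, with medians of 0.00 and 0.02. The 5 measured small heat shock proteins had medians of -0.22 in NP, 0.10 in MET and 0.02 in PHEN. Of these, 3 remained among probes above background on all 15 arrays, with medians of -0.20, 0.10 and 0.02. The 8 subunits of the TRiC chaperonin had medians of -0.08, -0.09 and -0.05. The 6 other HSF1 targets, among them HMOX1, had medians of 0.02, 0.01 and -0.02. In each of these lists 0 genes were called in each of the 3 treatments.

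**Figure D4:**
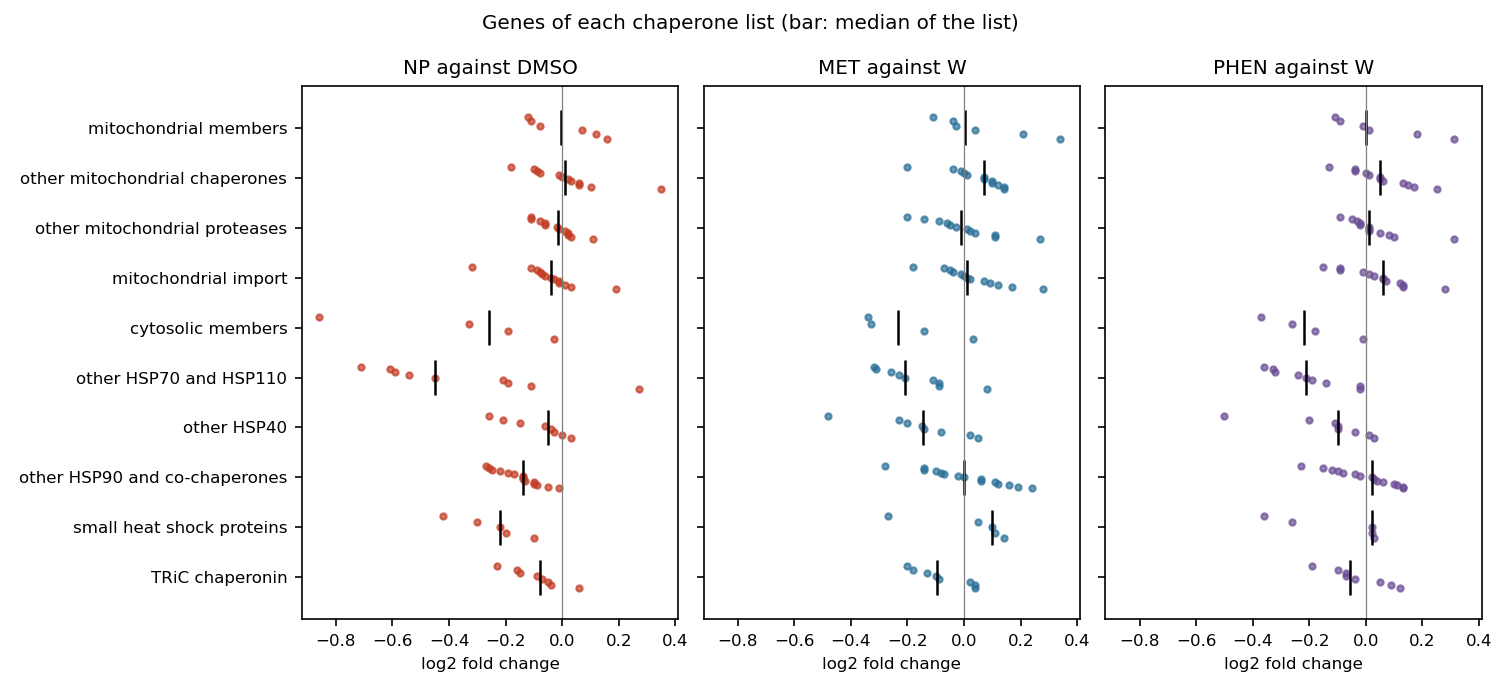
Log2 fold change of every measured gene in 10 chaperone lists (points) in the 3 treatments, with the median of each list as a bar. The cytosolic members and the other HSP70 and HSP110 genes lie mostly below 0 in each treatment, and the mitochondrial lists are centred near 0.

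For the rest of the mitochondrial protein quality system the median was 0.01, 0.07 and 0.05 (NP, MET, PHEN) over 12 other mitochondrial chaperones, -0.02, -0.01 and 0.01 over 12 measured proteases, -0.04, 0.01 and 0.06 over 13 import genes, and 0.00, -0.03 and -0.04 over 8 further targets of the mitochondrial response. In each list 0 genes were called. GRPEL2, a nucleotide exchange factor of mortalin, was at 3.03 to 3.19 in DMSO and at 3.44 to 3.47 in NP, and its fold change was 0.35 with a standard error of 0.13 (adjusted p = 0.953). TOMM40, the pore of the outer membrane, was at -0.32 in NP (adjusted p = 0.784). TIMM44, which anchors mortalin to the import channel, was at 3.08, 3.07 and 2.84 in W, 3.21, 3.34 and 3.29 in MET, and 3.25, 3.31 and 3.27 in PHEN. As with LONP1, all biguanide arrays were above all W arrays, and the fold change was 0.28 in both (adjusted p = 1). AFG3L2, a protease of the inner membrane, was at 0.27 in MET and 0.31 in PHEN (adjusted p = 1 in both). Other genes of these lists went down in MET. CLPX was at -0.20, OMA1 at -0.20 and TIMM17A at -0.18, each with all 3 pairs below 0.

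Transcripts of the regulators were measured on the same arrays. HSF1 itself had fold changes of -0.02 in NP, 0.01 in MET and 0.06 in PHEN, with a standard error of 0.08. ATF5, a factor of the mitochondrial response, was at -0.25 in NP, -0.12 in MET and -0.25 in PHEN (adjusted p = 1 in each). DDIT3 (CHOP) had the highest value of the 8 factors, with 1.04 in NP (adjusted p = 0.229), 0.68 in MET and 0.62 in PHEN (adjusted p = 1 in both). ATF4, a factor of the integrated stress response, was at 0.60 in NP (adjusted p = 0.624), 0.52 in MET and 0.56 in PHEN (adjusted p = 1 in both), and its pairs were above 0 in all 3 treatments. In NP, DDIT3 was called when the replicate block was set within each slide set and when the slide entered the fit. The transcript level of a factor does not show its activity.

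Between the vehicles, 1 of 10 members was called, where 10.4% of all features were. TRAP1 was lower in DMSO than in W by 0.90 (95% confidence interval from -1.17 to -0.64, adjusted p = 0.00388), and every DMSO array was below every W array. LONP1 differed by -0.49 (adjusted p = 0.0125), which is under the fold threshold. Only these members passed an adjusted p of 0.05 in this fit. With the replicate block within each slide set in limma, HSPE1, HSPA9 and CLPP passed too (adjusted p = 0.0485, 0.0248 and 0.0245). Their differences of -0.23, 0.24 and -0.20 were under the fold threshold. TRAP1 was not called when the fit used DMSO and W alone (adjusted p = 0.232), nor without replicate 1 or without replicate 2. Because the vehicles lay on different slides, this value may not be read as an effect of DMSO.

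Correlations between the members were taken across the 15 arrays, centred on each slide set. They are descriptions over arrays that share vehicles, slides and treatments. The median r was 0.66 over the 6 cytosolic pairs, from 0.15 to 0.70, and -0.29 over the 15 mitochondrial pairs, from -0.61 to 0.89. Over the 24 pairs of a mitochondrial with a cytosolic member it was 0.11, from -0.79 to 0.83. HSPD1 went with HSPA9 (0.89), HSPA1A (0.83) and HSP90AA1 (0.81), and in each of these genes DMSO replicate 3 and NP replicate 3, on the same slide, were the lowest of their groups. LONP1 and TRAP1 ran opposite to HSPH1, with r of -0.79 for both. Likeness to the mean of each compartment was taken over 19433 features above background on all arrays, and only those with a gene symbol were ranked. Outside the list, the genes most like the mean of the cytosolic members were C3orf52 (0.95), JUN (0.94), ABHD11 (0.93), LRIG1 (0.92) and CDCA3 (0.92). For the mean of the mitochondrial members they were TMEM204, R3HDM4, MIIP and RASD1 (0.92 each) and CPNE1 (0.91).

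**Figure D5:**
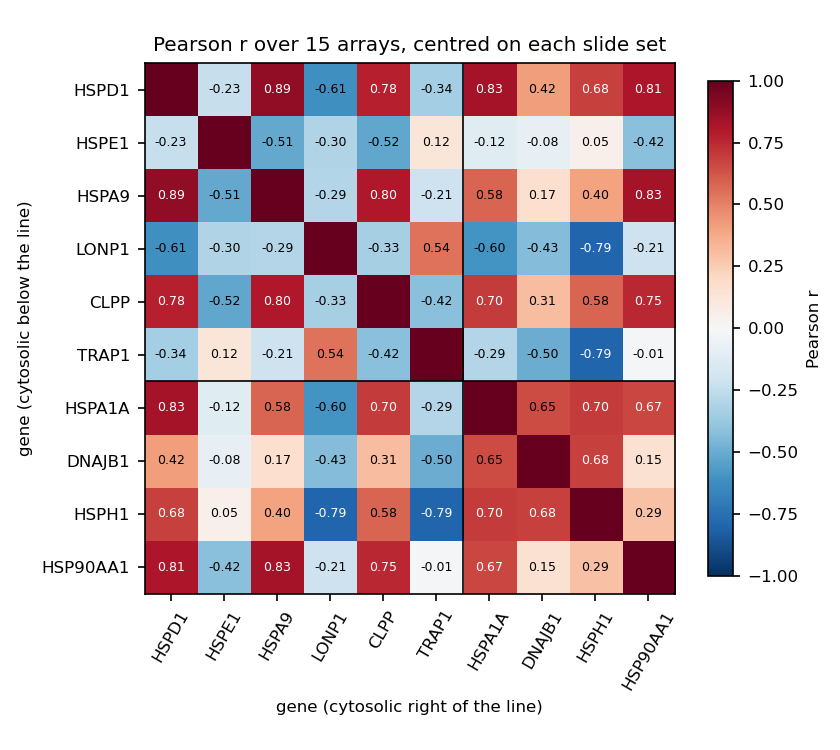
Pearson's r between each pair of the 10 genes over 15 arrays, after subtracting the mean of each slide set; red is positive and blue negative, and lines separate mitochondrial from cytosolic genes. HSPD1, HSPA9, CLPP, HSPA1A and HSP90AA1 form a block of positive values, and HSPH1 and DNAJB1 are also positive with each of these genes. LONP1 and TRAP1 are negative against HSPH1 (-0.79 for both).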

How the data were processed

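Total RNA of A2058 cells was labelled and hybridised to Agilent SurePrint arrays, 1 per sample. The deposited files give intensity per spot, extracted with Feature Extraction (version 9.1 per the labels, 10.7.3.1 per the file headers), and the authors deposited a table of log2 values scaled to the 75th percentile (Pearson's r with the values used here at least 0.9984). Other deposited columns, such as background and outlier flags, were used as flags. Control spots were removed, as were 1853 of 913515 spots flagged as outliers; no spot was saturated. Log2 processed signal minus the 75th percentile of each array was averaged per probe. Probes above background on 3 of 3 arrays of any group (32912 of 58201) were kept, and the brightest probe stood for a gene. Per array, 25799 to 45006 probes were above background; the number of arrays limits the precision. RefSeq accessions were matched to symbols for 31104 of 33080 probes that carry one.

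Groups came from sample titles. limma 3.58.1 (R 4.3.3) was fitted to 5 groups with the replicate number as a block. The study's methods used a paired t test against DMSO, and water is the biguanides' control per the series' design. Deviations of same-numbered arrays correlated within slide sets (r from 0.33 to 0.84) but not between DMSO and W (-0.19 to -0.03), so a block within each slide set was also fitted. Scripts were tested on simulated data. Members and lists were chosen with earlier results of these data known, and 1 gene of the lists is not reported here. All 10 members were named in each comparison; of other lists, the 2 genes with the largest change in the same direction in all 3 pairs were eligible, and other genes named were chosen after their values were seen. Alternatives were the block, background correction, scaling, filter, probe summary, arrays fitted, test, and leaving out each replicate. Promoter windows are RefSeq's on GRCh38.p14; the array design is on hg19, and no coordinates were carried between them.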

Additional observations from a re-analysis of the deposited data

Results flagged for a closer look

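For some genes of the lists every NP pair lay on one side of 0 and every pair of a biguanide on the other side, among 55 genes looked at; none was a member. The difference was tested in limma and passed its adjusted p in none (adjusted p = 1 for each). OMA1, a protease of the inner membrane, was at 0.11 in NP and -0.20 in MET, a difference of 0.30. UNC45A, a co-chaperone of HSP90, was at -0.14 and 0.24, a difference of -0.38. ENDOG, a mitochondrial nuclease, was at -0.17 and 0.11, a difference of -0.28. HSPB1 (HSP27) was at -0.10 and 0.10, a difference of -0.21. CCT3, a TRiC subunit, was at -0.16 in NP and 0.05 in PHEN, a difference of -0.21.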

How the results depend on the processing

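The number of members called in NP, MET and PHEN was 0 under every alternative run, which were the block, background correction, scaling, filter, probe summary, arrays fitted, the methods' paired t-test and leaving out each replicate; the medians of the members moved by less than the spread between pairs. With the replicate block within each slide set, 61 features were called in NP against DMSO in place of 10, and the count ranged from 0 to 68 over the limma alternatives, with 215 by the methods' t-test unadjusted and 0 adjusted. In that fit HSPA1A in NP had an adjusted p = 0.0935 and LONP1 in MET 0.385. Leaving out any replicate left 0 called in NP. In MET against W the counts were 0 to 2 and 122 by the unadjusted t-test, and in PHEN against W 0 to 15 and 160; the adjusted t-test gave 0 in both. Between DMSO and W the count of all features ran from 0 to 4895, and that of members was 0 with only the groups compared, 0 with the methods' t-test adjusted, and 0 to 1 over the fits without a replicate. Normexp correction moved the median of all features there from -0.11 to 0.06. Signs changed in HSPA9, HSP90AA1, CLPP and HSPE1. HSPA9 in PHEN became 0.01 with normexp, quantile normalization or the authors' table, and ranged from -0.08 to 0.05 without 1 replicate, as it did from -0.07 to 0.01 in MET. HSP90AA1 became -0.03 in MET and 0.04 in PHEN with quantile normalization and -0.15 in MET with the mean of its probes; without 1 replicate it ranged from -0.06 to 0.02 in NP and from -0.04 to 0.01 in PHEN. On leaving out 1 replicate CLPP in PHEN ranged from -0.03 to 0.05, and HSPE1 from -0.11 to 0.02 in MET and from -0.14 to 0.01 in PHEN. HSPA1A in NP ranged from -1.04 to -0.59, and LONP1 from 0.28 to 0.42 in MET and from 0.25 to 0.36 in PHEN.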
